A study of Drosophila melanogaster with 4 samples.

Results

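The 39 measured genes with symbols of cytosolic ribosomal proteins were followed in a precipitation of RNA with the Drosophila splicing factor B52. By symbol, 24 belong to the large and 15 to the small subunit. Members were the probes whose single gene symbol, updated through its gene identifier, starts with RpL or RpS. They numbered 47 of 15744 probes, 28 for the large and 19 for the small subunit. Of these, 44 had a value on all 4 arrays, and they covered all 39 genes; the other 3 belonged to RpS7 and RpS29, which each kept 1 complete probe. The gene table of assembly Release 6 lists 92 genes with such symbols, and the other 53 are not analysed here. The symbol rule itself used no measured value, but the family was chosen with earlier results of these data known.

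The study set RNA from larvae that expressed GFP-B52 against RNA from larvae that expressed GFP-NLS, which is GFP with a nuclear localisation signal and served as the control. Both transgenes were driven by GMR, which is active in the developing eye, and RNA was recovered with an antibody to GFP from pools of the anterior parts of 600 larvae of the third instar. Polyadenylated RNA from the GFP-B52 and the GFP-NLS precipitate was hybridised together on two-colour arrays in 2 replicates, each once with Cy5 and once with Cy3 on the B52 RNA (the B52-Cy5 and the B52-Cy3 array). B52 (SRp55) is an SR protein, one of the RNA-binding proteins that help to choose splice sites. The labels give no loss of the larva's own untagged B52, and the anterior part of a larva holds brain, imaginal discs and other tissues in which GMR is not active. In such pooled extracts, binding to the tagged protein, the level of an mRNA and the number of cells of a type cannot be told apart. The labels do not say whether the replicates came from separate larvae, and p-values therefore rest on a spread that may be technical.

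The ribosome reads mRNA on its small subunit and joins amino acids on its large subunit. Each subunit is built on ribosomal RNA from many small, mostly basic proteins, which are needed in nearly equal numbers. Their mRNAs are among the most abundant of growing cells, and loss of 1 copy of many of these genes gives the Minute phenotype of slow growth and thin bristles. Several genes have a second copy, and in flies copies such as RpL22-like, RpS5b, RpS10a and RpS19b are known for expression in the germline. The genes named RpL7-like, RpL24-like and RpLP0-like resemble, in yeast, the assembly factors Rlp7, Rlp24 and Mrt4, which hold the place of a ribosomal protein while the large subunit is made. These genes are counted with the large subunit here, by their symbols.

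The deposited values are log ratios of the channels, centred per array, for which the sources used here give neither log base nor direction. B52-Cy5 arrays had their sign changed, which makes a ratio of precipitates of it if the columns hold a fixed ratio of the dyes. Positive turned values lie on the side of B52 probe 13309, here named the B52-probe side. If the columns hold Cy3 over Cy5, it is the side of more RNA in the GFP-B52 precipitate, and if they hold Cy5 over Cy3, that of more RNA in the GFP-NLS precipitate. The probe itself had turned values of 0.451 and 0.411 in replicate 1 and 0.510 and 0.502 in replicate 2, the B52-Cy5 array before the B52-Cy3 array in each pair throughout. It is 1 of 5 complete probes for B52, and they disagree: probes 832, 2144 and 2736 averaged 0.13 ± 0.04, 0.11 ± 0.08 and 0.03 ± 0.13, and probe 4048 averaged -0.33 ± 0.39 (SD, n = 2 each). The name of the side therefore refers to that 1 probe and not to the B52 gene as a whole. Intensities are not analysed here, so a ratio cannot be set against a level of expression and the tissue labels cannot be checked against their markers. With 4 arrays, precision is limited by their number. Over all genes the turned arrays of replicate 1 ran against each other, with r = -0.57 across genes, and those of replicate 2 together, with r = 0.32.

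As a family, the ribosomal protein genes lay on the B52-probe side. The mean over both replicates was positive for 34 of 39 genes, where 46% of the 11173 measured genes were positive. The median was 0.07 log units for ribosomal protein genes and -0.01 for all measured genes. A positive value on all 4 turned arrays was found for 14 of 39 ribosomal protein genes, against 5.93% of all genes. A negative value on all 4 was found for 1 of 39, against 8.37%. RpL40, among the 14, and RpS19b, the 1, each owe their sign on 1 array to the centring. Means above 0.1 were found for 14 genes, against 9.85% of all genes, and a mean below -0.1 for 1 gene, against 13.9%. In replicate 2 alone 28 of 39 were positive, against 47.5% of all genes, and in replicate 1 alone 33, against 46.9%. The members were chosen with earlier results of these data known, so these counts stand as a description with no test over the list.

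No ribosomal protein probe passed the test across all 13963 probes, in which limma called 0 probes (0%) at an adjusted p under 0.05. The adjusted p of the 44 member probes lay between 0.268 and 0.943. An unadjusted p under 0.05 was reached on the B52-probe side by 9 of 44 member probes, against 5.22% of all probes, and on the opposite side by 2 of 44 (RpL3 probe 15224 and RpS19b), against 7.73%. When the 4 arrays were fitted singly with the replicate as a random block, 6 of 44 passed on the B52-probe side in limma, against 0.845% of all probes, and 0 on the opposite side, against 2.36%. Those 6 were RpL36A, RpL23, RpL24-like, RpL29, RpS28b and RpS18, with adjusted p between 0.02 and 0.0469. That fit had no term for the dye. The correlation estimated in it was -0.66, and a negative value lowers the standard error of a mean. With a dye term over the 4 separate arrays in place of the block, limma called 0 of all probes. The 6 probes then had adjusted p between 0.371 and 0.522 in limma.

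**Figure D1:**
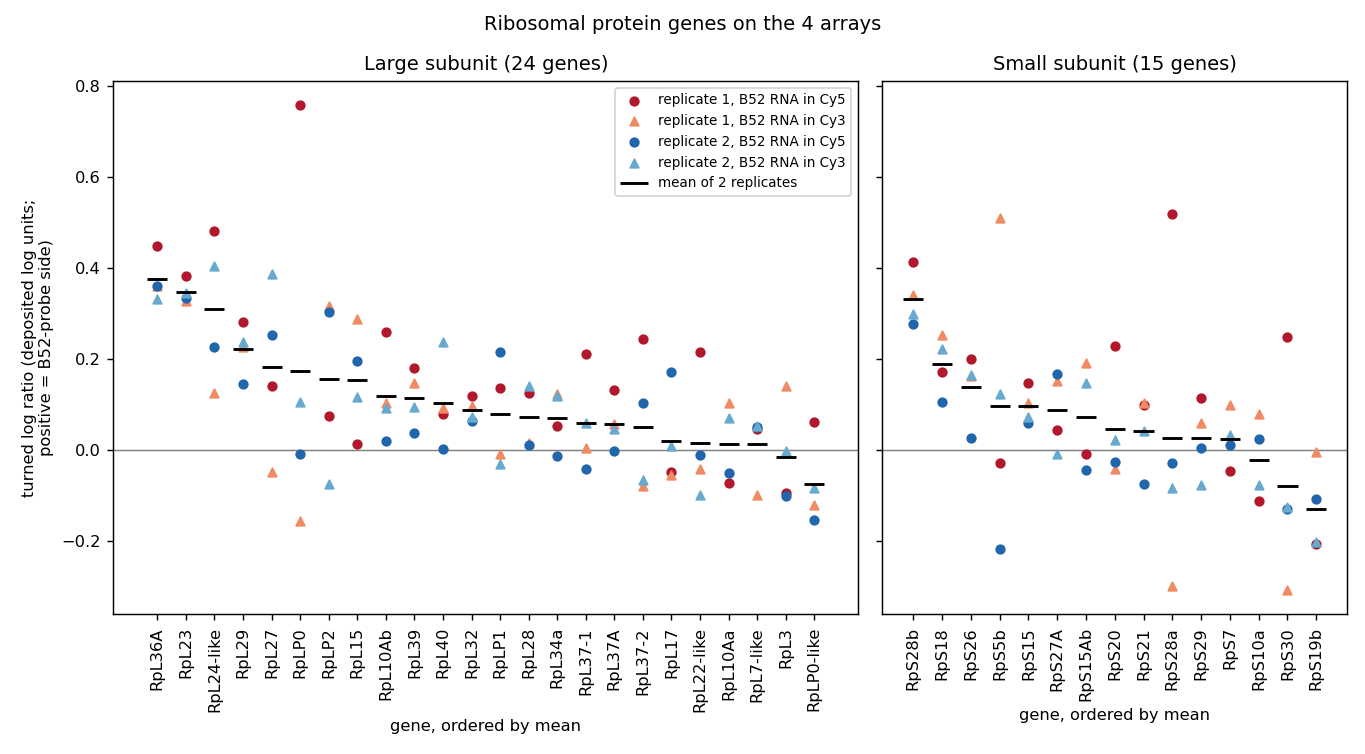
Turned log ratios of the 39 genes in deposited log units, with the large subunit left and the small subunit right, genes ordered by their mean. Circles are B52-Cy5 arrays and triangles B52-Cy3 arrays, red is replicate 1, blue is replicate 2 and black bars are means of 2 replicates; RpL36A, RpL23 and RpS28b have all 4 arrays between 0.276 and 0.447, whereas RpLP0, RpS5b and RpS28a are spread over both sides of 0.

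In the large subunit, 22 of 24 genes had a positive mean, with a median of 0.08 log units and means between -0.07 and 0.37. RpL36A, whose protein sits at the exit site for transfer RNA, had turned values of 0.447 and 0.360 in replicate 1 and 0.360 and 0.331 in replicate 2. The mean was 0.37 ± 0.04 (SD, n = 2; adjusted p = 0.268 in limma), which is 2.37-fold if the logs are to base 10 and 1.296-fold if they are to base 2. As deposited, the same probe stood at -0.443 and -0.358 on the B52-Cy5 arrays and at 0.366 and 0.333 on the B52-Cy3 arrays. The ratio therefore changed sign with the labels and kept its size in both replicates. The gene lies on 2L from 8041873 to 8042909 in Release 6.

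RpL23 repeated this closely. Its protein lies on the face of the large subunit that meets the small one, where the factor eIF6 binds before the subunits join. Turned values were 0.382 and 0.327 in replicate 1 and 0.334 and 0.345 in replicate 2, a mean of 0.35 ± 0.01 (SD, n = 2; adjusted p = 0.268 in limma). RpL36A and RpL23 were 2 of the 6 probes, of 13963 and thus 0.043%, that stood at least 0.301 log units on the B52-probe side on all 4 arrays. On the opposite side 14 probes, 0.1%, did so, and 0 of these were ribosomal protein probes. RpL23 lies on 2R from 22854383 to 22855694.

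RpL24-like had close replicate means with a wide spread within each replicate. Its turned values were 0.481 and 0.126 in replicate 1 and 0.226 and 0.403 in replicate 2, so that the B52-Cy5 array was the higher in replicate 1 and the B52-Cy3 array in replicate 2. The mean was 0.31 ± 0.01 (SD, n = 2; adjusted p = 0.268 in limma); the SD is between replicate means and leaves out the spread between the arrays of a replicate. The gene lies on 3R from 11430740 to 11431582. RpL29, a small basic protein of the subunit's surface, was tighter, with 0.281 and 0.225 in replicate 1 and 0.144 and 0.236 in replicate 2. Its mean was 0.22 ± 0.04 (SD, n = 2; adjusted p = 0.277 in limma).

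RpL15 and RpLP2 complete the 6 large-subunit genes with the largest moderated statistics. RpL15, a core protein of the subunit, had a mean of 0.15 ± 0.004 (SD, n = 2; adjusted p = 0.314 in limma), with arrays between 0.014 and 0.287. RpLP2, an acidic protein of the stalk that recruits elongation factors, had a mean of 0.16 ± 0.06 (SD, n = 2; adjusted p = 0.332 in limma). It stood at 0.075 and 0.317 in replicate 1 and at 0.302 and -0.074 in replicate 2, so it was below 0 on 1 array. Without the B52-Cy5 array of replicate 2 the mean of RpLP2 was 0.06, and without its B52-Cy3 array it was 0.25. For RpL15 the mean was 0.08 without the B52-Cy3 array of replicate 1.

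The other stalk proteins were less even. RpLP0, the base of the stalk, averaged 0.17 ± 0.18 (SD, n = 2), with 0.757 and -0.157 in replicate 1 and -0.008 and 0.105 in replicate 2. That mean was 0.05 in replicate 2 alone and -0.05 without the B52-Cy5 array of replicate 1. It was 0.40 without the B52-Cy3 array of replicate 1. RpLP1 averaged 0.08 ± 0.02, with the B52-Cy5 arrays at 0.136 and 0.216 and the B52-Cy3 arrays at -0.009 and -0.031. It was thus on the B52-probe side on 2 of 4 arrays.

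Among the other large-subunit genes, RpL32, the rp49 transcript often used to normalise measurements in flies, had 4 arrays between 0.064 and 0.119 and a mean of 0.09 ± 0.03 (SD, n = 2). RpL39, a small protein of the exit tunnel, averaged 0.11 ± 0.07 and was above 0 on all 4 arrays. RpL40, which is made as a fusion with ubiquitin, averaged 0.10 ± 0.02 and was also above 0 on all 4. On the B52-Cy5 array of replicate 2 RpL40 stood at only 0.001, a side that rests on the centring. RpL28 was above 0 on all arrays too, at 0.07 ± 0.004, whereas RpL27, at 0.18 ± 0.19, had 1 array at -0.049. RpL37A at 0.06 and RpL17 at 0.02 were close to 0, and RpL17 had 2 arrays on either side. RpL17 is the average of 2 probes that differed in sign, 11968 at -0.03 ± 0.15 and 8663 at 0.07 ± 0.05 (SD, n = 2 each). RpL3, a protein next to the catalytic centre, averaged -0.01 ± 0.05 over 4 probes. Those probes ran from -0.14 ± 0.03 for probe 15224, with arrays between -0.516 and 0.266, to 0.06 ± 0.09 for probe 6557, so they differed in sign.

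In the small subunit, 12 of 15 genes had a positive mean, with a median of 0.05 log units and means between -0.13 and 0.33. RpS28b, whose protein lies near the channel through which mRNA leaves, had the highest mean of the subunit. Turned values were 0.413 and 0.341 in replicate 1 and 0.276 and 0.299 in replicate 2, with a mean of 0.33 ± 0.06 (SD, n = 2; adjusted p = 0.268 in limma), which is 2.15-fold to base 10 and 1.26-fold to base 2. All 4 arrays were higher than any array of the next gene by mean, RpS18. In replicate 1, RpS28a at 0.519 on the B52-Cy5 array and RpS5b at 0.510 on the B52-Cy3 array were higher than any array of RpS28b. RpS28b lies on X from 9554623 to 9555661.

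RpS18, a protein of the head of the subunit, had 0.171 and 0.253 in replicate 1 and 0.105 and 0.222 in replicate 2, a mean of 0.19 ± 0.03 (SD, n = 2; adjusted p = 0.292 in limma). RpS26, which contacts mRNA upstream of the decoding site, averaged 0.14 ± 0.06 (adjusted p = 0.37 in limma), with 3 arrays between 0.162 and 0.200 and the B52-Cy5 array of replicate 2 at 0.026. RpS15, another head protein, was above 0 on all 4 arrays at 0.10 ± 0.04 (SD, n = 2). RpS27A, the small-subunit protein made as a fusion with ubiquitin, averaged 0.09 ± 0.01, with 1 array at -0.010. The ubiquitin fusions of both subunits therefore had similar means, 0.10 for RpL40 and 0.09 for RpS27A. Without the B52-Cy5 array of replicate 2 the mean of RpS27A was 0.04.

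The rest of the small subunit lay nearer 0. RpS20 at 0.05, RpS21 at 0.04, RpS29 at 0.03 and RpS7 at 0.02 each had at least 1 array below 0. A further probe for RpS29, without a value on 1 array, stood at -0.273, -0.124 and -0.221, so the probes of that gene disagreed. For RpS7, a further probe without a value on 1 array stood at 0.326, -0.257 and 0.091, and another had only 1 value, 0.055. RpS30, made as a fusion with a ubiquitin-like protein, averaged -0.08 ± 0.07 (SD, n = 2), with 0.248 on the B52-Cy5 array of replicate 1 and the other 3 between -0.308 and -0.125. RpS19b was the 1 ribosomal protein gene below 0 on all 4 turned arrays. It stood at -0.206 and -0.004 in replicate 1 and -0.108 and -0.203 in replicate 2. The -0.004 was 0.002 as deposited, so its sign rests on the centring of that array. The mean of RpS19b was -0.13 ± 0.04 (SD, n = 2, adjusted p = 0.37 in limma).

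**Figure D2:**
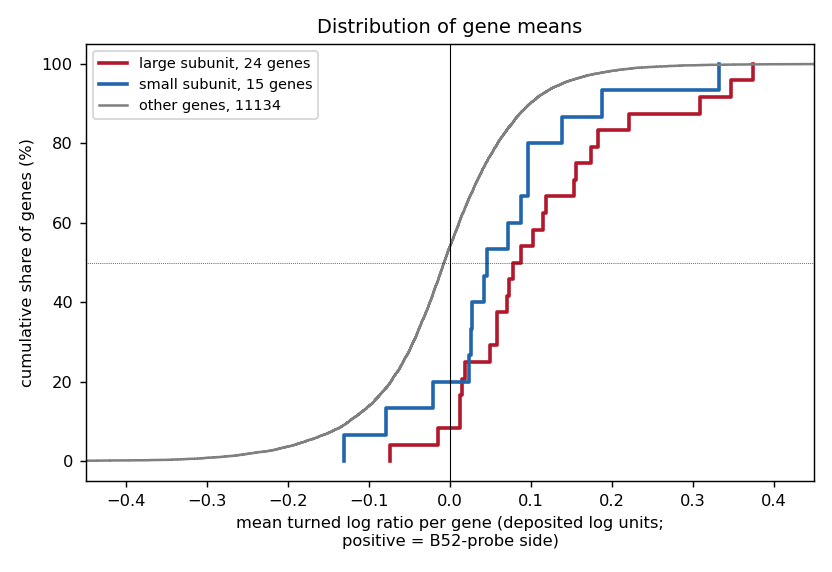
Cumulative share of genes (vertical axis, %) by mean turned log ratio in deposited log units (horizontal axis) for 24 large-subunit genes, 15 small-subunit genes and 11134 other genes, of which 24 lie outside the plotted range. Both subunits run to the right of the other genes, and medians, read at the dotted line, are 0.08 for the large subunit, 0.05 for the small subunit and -0.01 for other genes.

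The large subunit had the higher median, but the gap was not stable between replicates. The large-subunit median was 0.09 in replicate 1 and 0.07 in replicate 2, and the small-subunit median 0.10 in replicate 1 and -0.002 in replicate 2. The difference, large minus small, was 0.04 over both replicates, -0.006 in replicate 1 and 0.07 in replicate 2, so it changed sign between them. In replicate 2, 21 of 24 large-subunit and 7 of 15 small-subunit genes were positive, against 47.5% of all genes. In replicate 1, 21 and 12 were, against 46.9%. The small subunit thus lay near the share of all genes in replicate 2. With 2 replicates no exact test of a single value can go below p = 0.5, so no p is given for this or any other difference between members.

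On single arrays, as deposited, the medians of both subunits changed sign with the dye. For the small subunit in replicate 2 this rests on a value close to 0 on the B52-Cy5 array. There 8 of 15 small-subunit genes were positive after turning. On the B52-Cy5 arrays the large-subunit median was -0.13 in replicate 1 and -0.04 in replicate 2, and on B52-Cy3 arrays it was 0.10 and 0.08. The small-subunit medians were -0.11 and -0.003 on B52-Cy5 arrays and 0.11 and 0.03 on B52-Cy3 arrays. All other genes had medians of 0.02 and 0.006 on B52-Cy5 arrays and 0.01 and 0 on B52-Cy3 arrays. Of the 39 genes, 31 and 24 were positive after turning on the B52-Cy5 arrays, of replicates 1 and 2, and 27 on each B52-Cy3 array. Of all 11173 genes, 5226 and 5409 were positive on the B52-Cy5 arrays and 5749 and 5436 on the B52-Cy3 arrays. Read without turning, the family median was -0.01, with 16 of 39 genes positive, against 52.5% of all genes. Of the 44 member probes 0 were then called, against 0.659% of all probes. The shift of the family is thus seen only with turning.

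**Figure D3:**
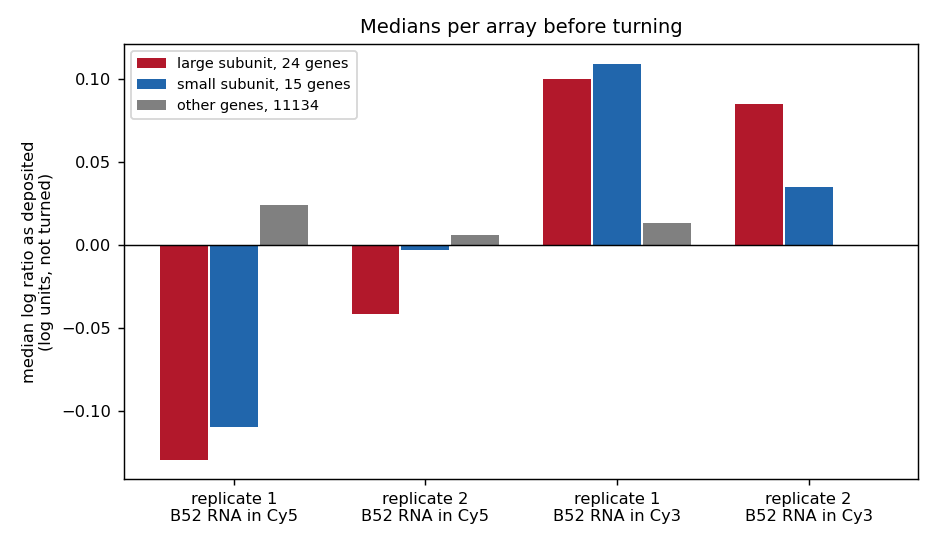
Median log ratio as deposited, in log units and not turned, on each of the 4 arrays, for large-subunit genes (red), small-subunit genes (blue) and all other genes (grey). The red and blue bars point down on both B52-Cy5 arrays and up on both B52-Cy3 arrays, from -0.13 to 0.11. The blue bar of the B52-Cy5 array of replicate 2 is at only -0.003. The grey bars stay between 0 and 0.02.

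Turning and fixed parts were also compared over the probes. Over the 44 member probes, the mean of the turned values carried 54.4% of the mean square, a fixed effect of the dye 20.3%, a difference of the comparison between replicates 8.06% and a difference of the dye effect between replicates 17.2%. Over the 11740 other probes with a single gene symbol these shares were 24.6%, 40.1%, 10.8% and 24.5%. The turning part exceeded the dye part in 28 of 44 member probes and in 38.5% of the others. It did so in 20 of 28 large-subunit and 8 of 16 small-subunit probes. The share of the turning part was 59.4% in the large and 44.5% in the small subunit. These shares pool squares over probes, so the largest values weigh most. RpL36A, RpL23, RpS28b and RpL24-like had turning parts of 0.37, 0.35, 0.33 and 0.31, with dye parts between -0.0445 and -0.011. Of these only RpS28b belongs to the small subunit, and shares without these probes were not computed.

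**Figure D4:**
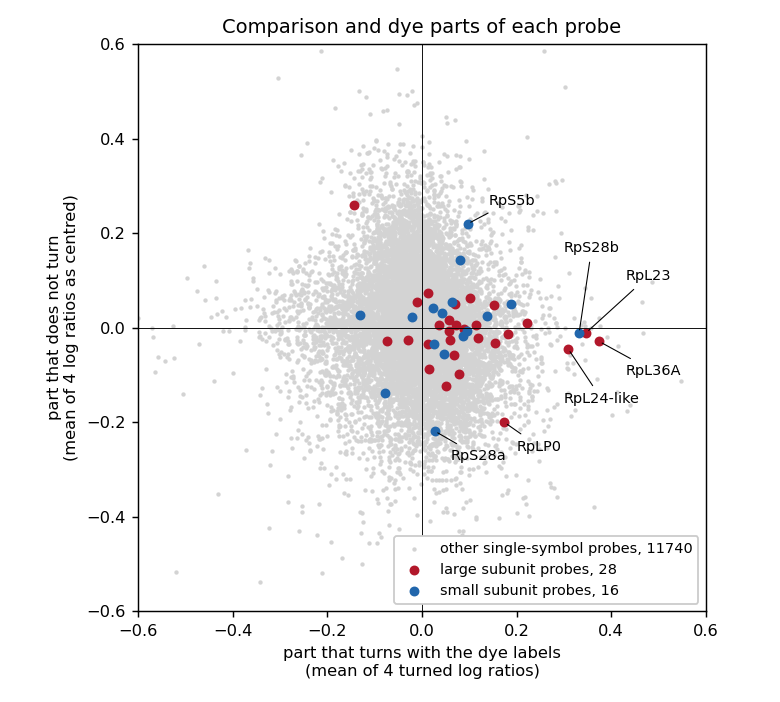
Each point is a probe: the horizontal axis is the mean of its 4 turned log ratios and the vertical axis the mean of its 4 centred log ratios without turning, both in deposited log units, for 28 large-subunit, 16 small-subunit and 11740 other single-symbol probes, of which 11 lie outside the plotted range. RpL36A, RpL23, RpS28b and RpL24-like lie near the horizontal axis at 0.31 to 0.37, while RpLP0, RpS28a and RpS5b carry dye parts of -0.20, -0.22 and 0.22.

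Across the 39 genes the replicates ran together. Their means correlated across genes, which are not independent replicates and share the arrays, with r = 0.70 (Pearson) and rho = 0.544 (Spearman), and 30 of 39 had the same sign in both. Without RpL36A, RpL23, RpS28b and RpL24-like, the 4 highest, r was 0.422 and rho 0.385 over 35 genes. Over all 11173 genes r was 0.405 and rho 0.367, with the same sign for 61.3%. Between the arrays of opposite dye, r over the ribosomal protein genes was -0.15 within replicate 1 and 0.53 within replicate 2.

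The genes named as copies or relatives of another ribosomal protein gene lay on both sides of 0 and included RpL24-like and RpS28b, among the 4 highest members. These 15 genes had a median of 0.05, with 12 positive and 3 positive on all 4 arrays, and the 24 without a named relative a median of 0.09, with 22 positive and 11 positive on all 4. In replicate 1 alone these medians were 0.09 and 0.10, and in replicate 2 alone 0.01 and 0.08. Within the large subunit the median was 0.11 for the 15 genes without a relative. Within the small subunit it was 0.05 for the 9 such genes, equal to that of all 15. A paralog and its partner were both measured in 4 pairs; RpLP0, the partner of RpLP0-like, is counted among the 24. Copies with similar sequence may share signal on a probe, and where each probe lies in its transcript was not analysed here.

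The largest mean difference, though not one of the same sign on all arrays, was that between RpS28a and RpS28b. RpS28a, a short gene on 3R, had 0.519 and -0.300 in replicate 1 and -0.028 and -0.084 in replicate 2, against 0.276 to 0.413 for RpS28b. RpS28a minus RpS28b was -0.641, -0.304 and -0.383 on 3 of 4 arrays and 0.106 on the B52-Cy5 array of replicate 1. The mean difference was -0.31 ± 0.05 (SD, n = 2), and the array values of both genes overlapped. It was -0.49 without the B52-Cy5 array of replicate 1 and -0.12 without its B52-Cy3 array.

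RpLP0-like, the relative of an assembly factor, averaged -0.07 ± 0.06 against 0.17 ± 0.18 for the stalk protein RpLP0 (SD, n = 2 each). Its arrays stood at 0.061 and -0.121 in replicate 1 and -0.154 and -0.084 in replicate 2. The difference, RpLP0-like minus RpLP0, was -0.25 ± 0.11 (SD, n = 2) with -0.696 and 0.036 in replicate 1 and -0.146 and -0.189 in replicate 2. It was -0.17 in replicate 2 alone, -0.07 without the B52-Cy5 array of replicate 1 and -0.43 without the B52-Cy3 array of that replicate, so its sign held and its size did not.

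RpL10Aa averaged 0.01 ± 0.003 against 0.12 ± 0.09 for RpL10Ab (SD, n = 2 each), both copies of the protein of the L1 stalk, which guides transfer RNA out. RpL10Aa had -0.073 and 0.102 in replicate 1 and -0.051 and 0.071 in replicate 2, and RpL10Ab 0.259 and 0.103 in replicate 1 and 0.020 and 0.092 in replicate 2. RpL10Aa minus RpL10Ab was -0.332, -0.001, -0.071 and -0.021, below 0 on all 4 arrays and farthest on the B52-Cy5 array of replicate 1, with a mean of -0.11 ± 0.09. Without that array it was -0.02, and without the B52-Cy3 array of replicate 1 it was -0.19. RpL37-2 and RpL37-1, copies of a zinc-binding protein of the large subunit, had close means, 0.05 ± 0.04 and 0.06 ± 0.07 (SD, n = 2 each). RpL37-2 minus RpL37-1 was -0.008 ± 0.03 and took both signs when an array was left out, between -0.08 and 0.06, lowest without the B52-Cy5 array of replicate 2 and highest without its B52-Cy3 array.

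**Figure D5:**
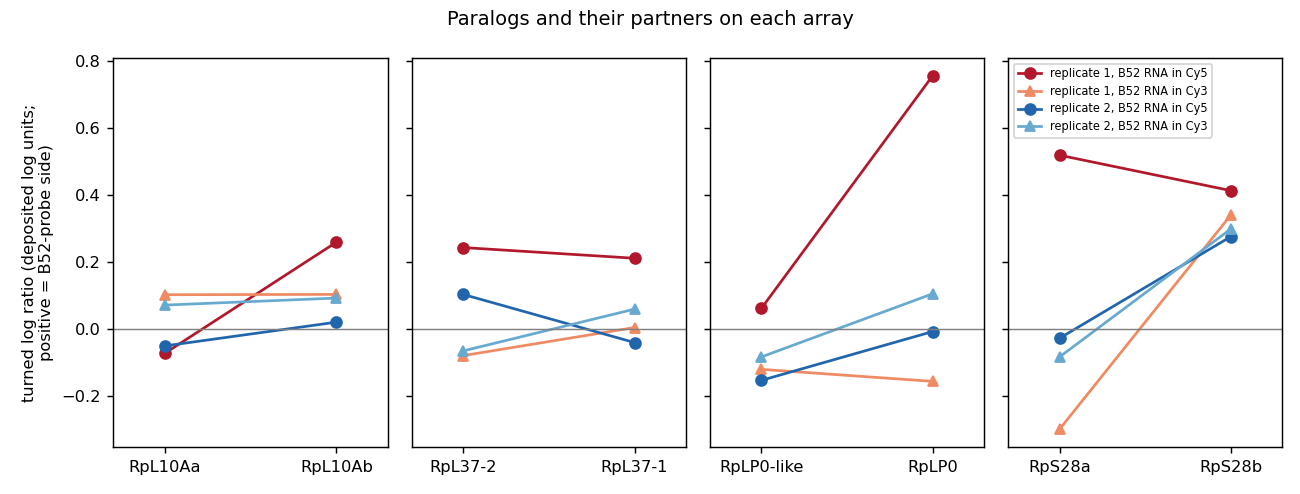
Turned log ratios in deposited log units of 4 paralogs (left in each panel) and their partners (right), joined on each of the 4 arrays; circles are B52-Cy5 arrays and triangles B52-Cy3 arrays, red is replicate 1 and blue replicate 2. RpS28a minus RpS28b is -0.641, -0.304 and -0.383 on 3 of 4 arrays and 0.106 on the B52-Cy5 array of replicate 1. RpLP0-like minus RpLP0 is -0.696 and 0.036 in replicate 1 and -0.146 and -0.189 in replicate 2.

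Relatives without a measured partner were, apart from RpL24-like, between -0.13 and 0.10. In the large subunit, RpL34a averaged 0.07 ± 0.02, RpL22-like 0.02 ± 0.10 and RpL7-like, the relative of yeast Rlp7, 0.01 ± 0.06 (SD, n = 2 each). In the small subunit, RpS5b averaged 0.10 ± 0.20, RpS15Ab 0.07 ± 0.03, RpS10a -0.02 ± 0.01 and RpS19b -0.13 ± 0.04. RpS5b had the widest array values of these, from -0.218 to 0.510, with both B52-Cy5 arrays below 0 and both B52-Cy3 arrays above. Of the 3 relatives of assembly factors, RpL24-like at 0.31 thus stood apart from RpL7-like and RpLP0-like, and it was above 0 on 4 arrays where they were on 3 and 1.

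Gene length and chromosome arm were not used to choose the members. The genes span between 304 and 3280 bases, introns included, with a median of 1073, against 2324 over all measured genes with a length. Length and mean value correlated across genes at a Spearman rho of -0.05 over the 39 genes and -0.04 over all genes. The 13 shortest, 13 middle and 13 longest members had medians of 0.07, 0.08 and 0.07. Other genes no longer than the longest member had a median of -0.005, and 47.4% of them were positive. Members on X, 2L, 2R, 3L and 3R had medians of 0.06, 0.08, 0.11, 0.14 and 0.03, from 3, 8, 10, 4 and 14 genes. On 3R 10 of 14 members were positive, and the 3R group held 4 of the 5 members with a negative mean; the difference between arms was not tested.

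Other parts of the protein synthesis machinery give the setting. Of 34 translation factor genes, 31 had a positive mean, with a median of 0.08, led by the initiation factor genes eIF3g1 at 0.39 ± 0.004 and eIF2beta at 0.29 ± 0.01 and by pAbp at 0.19 ± 0.09 (SD, n = 2 each). Of 70 mitochondrial ribosomal protein genes 47 were positive, with a median of 0.02, and 7 were positive and 7 negative on all 4 arrays. Of 36 ribosome biogenesis genes 25 were positive, with a median of 0.02, with hoip at -0.20 ± 0.01 and NHP2 at 0.19 ± 0.01 on opposite sides (SD, n = 2 each). The 8 genes of RNA polymerase I and Myc had a median of -0.01, with 3 positive, and the 9 genes of control by TOR one of -0.01, with 4 positive. The cytosolic ribosomal proteins and the translation factors thus had like medians, and whether any of these lists differed was not tested.

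Markers of tissues in the dissected part lay on both sides. Hemocyte markers were positive for 17 of 23 genes, with a median of 0.07, and muscle markers for 9 of 13, with a median of 0.11. Eye disc markers were positive for 7 of 28 genes, with a median of -0.07, and glial markers for 1 of 12, with a median of -0.10. Fat body markers had a median of 0.01 (6 of 11 positive), gut markers 0.02 (13 of 23) and salivary gland markers -0.01 (6 of 13). Their part in the values of the ribosomal protein genes was not tested.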

How the data were processed

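Two-colour arrays from 2 replicates with both dye orientations were used. The authors deposited a table of another unit than counts or intensities, log ratios of the channels; for base, direction, background correction and normalization, the record is: not given in the sources used here. Deposited column medians lay between 0.002 and 0.006. The 16 placeholder cells and between 350 and 955 empty cells per array were treated as missing, which left 14788 to 15394 values per array.

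Symbols came from the platform annotation through its gene identifiers (Release 6 gene table): 13147 probes had 1 symbol, 12519 of them current ones and 628 as in the annotation, 99 had several (3 of these with RpS12) and 2498 had none here. Arrays were centred on their medians and those with B52 RNA in Cy5 turned. Dye orientations of a replicate were averaged and complete probes tested in limma 3.58.1 under R 4.3.3 (lmFit and eBayes against 0, 3.47 prior degrees of freedom, Benjamini-Hochberg). Gene values average the complete probes of a gene.

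The design assumed log values; as the base is unstated, log units are given as deposited. Members, turning and lists were chosen with earlier results of these data known. The lists were translation factors, ribosome biogenesis, RNA polymerase I and Myc, control by TOR, and markers of eye disc, hemocyte, fat body, muscle, glia, salivary gland and gut; 11 entries had no match. Mitochondrial ribosomal proteins were taken by symbol. By rule, values were given for every paralog and its partner, the 6 genes per subunit with the largest moderated statistic and any gene on the opposite side on all 4 arrays; up to 3 genes were named per other list. Other members were named for their roles after their values were seen. The replicate number links both dye orientations of 1 pair of precipitates, per the labels' titles and design text.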

Additional observations from a re-analysis of the deposited data

How the results depend on the processing

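The alternatives were no turning, no centring, a common scale for all arrays, 1 array or more per replicate, each replicate and each array left out, a dye term over separate arrays, the replicate block, robust moderation, a fit on genes, medians over probes, no paralogs, and means. Subtraction of a running median over neighbouring probe numbers, the fit on single-symbol probes and leaving out arrays for the paralogs were added after seeing the data.

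Without turning, 92 of all probes were called and 0 ribosomal protein probes, the large-subunit median was -0.0176, and large minus small was -0.0399. RpL10Aa minus RpL10Ab was then 0.0952, RpL37-2 minus RpL37-1 -0.0962, RpLP0-like minus RpLP0 0.172 and RpS28a minus RpS28b -0.206. Of 25 named genes 16 reversed without turning: RpL10Ab to -0.021, RpL22-like to -0.0865, RpL23 to -0.011, RpL24-like to -0.0445, RpL36A to -0.029, RpL37-1 to -0.0268, RpL37-2 to -0.123, RpL7-like to -0.0355, RpLP0 to -0.200, RpLP2 to -0.0335, RpS10a to 0.0222, RpS15 to -0.00725, RpS19b to 0.0268, RpS27A to -0.0173, RpS28a to -0.219 and RpS28b to -0.0122. With the replicate block limma called 447 probes, 6 of them ribosomal protein probes, and with a dye term over separate arrays 0. Robust moderation, genes and single-symbol probes gave 1 call each. The large-subunit median was 0.114 without paralogs and its mean 0.112. Scaling turned RpL22-like to -0.00704 and RpS28a to -0.00531. The cause was not tested.

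With a replicate or an array left out, the large-subunit median lay between 0.067 and 0.0992, the small between -0.0025 and 0.097, and large minus small between -0.00625 and 0.0695. RpL10Aa minus RpL10Ab lay between -0.189 and -0.0235, RpL37-2 minus RpL37-1 between -0.0755 and 0.059, RpLP0-like minus RpLP0 between -0.432 and -0.0658, and RpS28a minus RpS28b between -0.492 and -0.119. Of the 25 genes named by rule, these took both signs: RpL10Aa (-0.0315 to 0.056), RpL22-like (-0.0555 to 0.0855), RpL37-2 (-0.0308 to 0.131), RpL7-like (-0.027 to 0.051), RpLP0 (-0.0543 to 0.403), RpS10a (-0.069 to 0.0265), RpS28a (-0.178 to 0.2315) and RpS5b (-0.048 to 0.241). Among the other members, RpL17 (-0.0214 to 0.0596), RpL3 (-0.0733 to 0.0438), RpS20 (-0.0218 to 0.113) and RpS30 (-0.218 to 0.0602) did so when an array was left out. RpS21 was -0.0165 in replicate 2 alone. RpS29 ran from -0.105 to 0.046, but the -0.105, without the B52-Cy5 array of replicate 1, took in its further probe. Its complete probe was -0.036 in replicate 2 alone. RpS7 also took in a further probe without the B52-Cy3 array of replicate 1, and it stayed above 0. Between 28 and 34 of 39 genes were positive under these omissions. The 28 were in replicate 2 alone, against 47.5% of all genes. The 34 were found without the B52-Cy3 array of replicate 2, against 46.3%. Without the B52-Cy5 array of replicate 1, 29 were positive, against 52.6% of all genes, the highest such share under these omissions. Medians were then 0.0598 for ribosomal protein genes and 0.0072 for all genes.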
